A study of Oryza sativa Japonica Group and Oryza sativa Indica Group with 10 samples.

Results

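WD40 repeat protein genes were examined in young rice panicles on the Affymetrix GeneChip rice array. They were taken to be the genes that carry an OsWD40 symbol with a number in the gene tables used here and no cell cycle symbol. Probe sets paired with exactly 1 gene were searched, and 2 of these 22436 probe sets, of 2 of 17905 genes, met the rule. These were OsWD40-80, also named RGB1 (LOC4333680, probe set Os.10.1.S1_s_at), and OsWD40-81, also named LST8 (LOC4333729, probe set Os.45015.1.S1_at). The symbols stand for a large family of which 2 members were found, so the values below describe 2 genes and not the family. Panicles 2 cm long of 93-11, an indica cultivar, and of Nipponbare, a japonica cultivar, were compared, with 5 biological replicates of each. Both cultivars are represented by a single line and no treatment or transgene is given for either. No source used here gives the age of the plants or how many panicles made up a replicate. In such bulk tissue, fewer cells of a type and less RNA per cell cannot be told apart.

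A WD40 repeat is a short stretch of protein that often ends in tryptophan and aspartate. Several repeats fold into a ring, the beta-propeller, which holds other proteins together and has no enzyme activity of its own. RGB1 is the beta subunit of the heterotrimeric G protein, which relays signals from the plasma membrane. It pairs tightly with a gamma subunit and binds the alpha subunit, which is RGA1 in rice, the product of the dwarf gene D1. LST8 is a small propeller that binds and stabilises the TOR kinase, which couples growth and protein synthesis to nutrients, a role known best from yeast and animals and shared by Arabidopsis.

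Both genes were well expressed in the young panicle. The mean log10 signal of RGB1 was 3.47 in 93-11 and 3.50 in Nipponbare, and that of LST8 was 3.03 in 93-11 and 3.04 in Nipponbare (n = 5 arrays each). Both lay above a log10 signal of 2.5 in both cultivars. The study sets this level on log10 intensities of single perfect-match probes, to pick highly expressed probe sets, and here it was applied to the mean log10 of the deposited summary signal. This share of 2 in 2 stands beside 40.1% of the probe sets paired with 1 gene and 19.2% of all 57258 rice probe sets. After the scaling described below it was again 2 in 2, beside 40.9% and 19.6%. The lowest signal on any of the 10 arrays was 2332 for RGB1 and 838.8 for LST8, in arbitrary linear units.

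As deposited, RGB1 had a signal of 3566, 2746, 3185, 2806 and 2556 on the 93-11 arrays, replicates 1 to 5. On the Nipponbare arrays, it had 3167, 4306, 3071, 3143 and 2332. The arrays of the cultivars overlapped, since both the highest and the lowest value were from Nipponbare, in replicates 2 and 5. The mean was 2972 ± 403 in 93-11 and 3204 ± 707 in Nipponbare (SD, n = 5 each). The log2 difference, 93-11 minus Nipponbare, was -0.09 (standard error 0.17, 95% interval -0.45 to 0.27, limma adjusted p = 0.807), which was less than the spread between replicates. The interval allows a fold of 0.73 to 1.21.

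LST8 behaved in the same way as deposited. It had a signal of 1188, 969.4, 1104, 985.5 and 1066 on the 93-11 arrays and of 1132, 1282, 1001, 1372 and 838.8 on the Nipponbare arrays. Again both extremes were in Nipponbare, here replicates 4 and 5, and the 93-11 arrays lay between them. The mean was 1062 ± 89.4 in 93-11 and 1125 ± 214 in Nipponbare (SD, n = 5 each). The log2 difference was -0.06 (standard error 0.16, 95% interval -0.40 to 0.27, limma adjusted p = 0.855), and the interval allows a fold of 0.76 to 1.20. Neither gene was called in either direction as deposited, by limma or by the methods' t-test, and neither had an unadjusted p under 0.05. The background was 13.5% of all rice probe sets, made up of 1.66% higher and 11.9% lower in 93-11.

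The arrays differed in brightness. With 2% of the probe sets trimmed at each end, the mean signal of an array lay between 196 and 235 in 93-11 and between 205 and 377 in Nipponbare. RGB1 was highest on Nipponbare replicate 2, the brightest of the 10 arrays, and lowest on Nipponbare replicate 5. The brightness of an array enters the deposited signal of every probe set. No correlation was computed for probe sets of other genes, so those below do not set RGB1 or LST8 apart. Over the 10 arrays, the deposited signal of RGB1 correlated with the trimmed mean of the array (Pearson's r = 0.865, permutation p = 0.00343, adjusted p = 0.0137; Spearman's rho = 0.709, permutation p = 0.0256, adjusted p = 0.0341). For LST8, r was 0.636 (permutation p = 0.0473, adjusted p = 0.0473) and rho was 0.745 (permutation p = 0.0174, adjusted p = 0.0341), with adjustment over 4 values. Without Nipponbare replicates 1 and 2, whose trimmed means were farthest from the median, r was 0.617 for RGB1 (exact permutation p = 0.109, n = 8) and 0.592 for LST8 (exact permutation p = 0.120, n = 8), and rho was 0.595 for RGB1 and 0.69 for LST8. With these arrays left out, r thus did not pass the test in 8 arrays, while the coefficient of LST8 changed little. No correlation was computed within a cultivar, which has 5 arrays, so the coefficients include the difference in level between cultivars, whose trimmed means averaged 213 ± 18.5 in 93-11 and 277 ± 62.4 in Nipponbare (SD, n = 5 each).

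**Figure D1:**
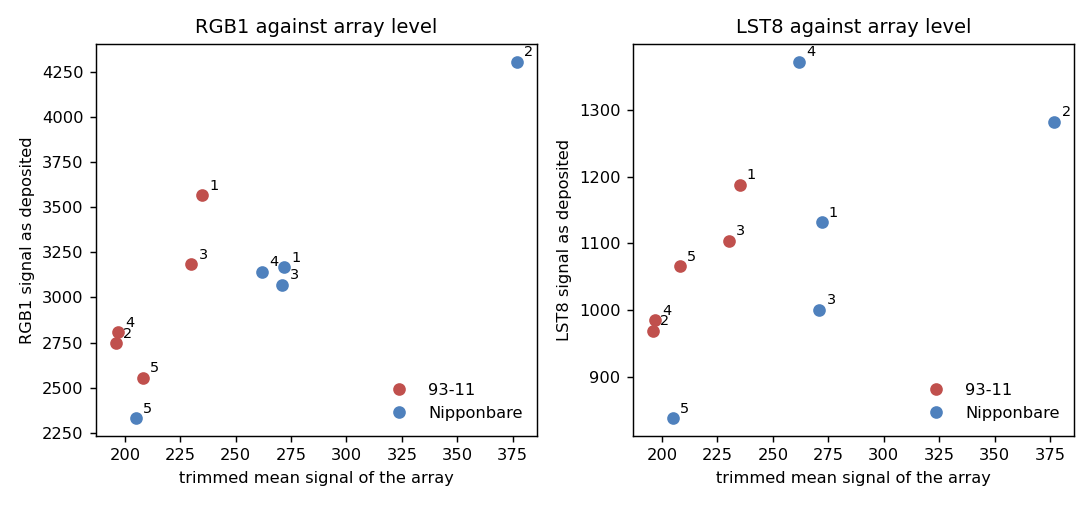
Deposited signal of RGB1 (left) and LST8 (right) against the trimmed mean signal of the array, both in arbitrary linear units, with 1 point per array and its replicate number (93-11 in red, Nipponbare in blue). The axes do not start at 0. RGB1 reaches 4306 on Nipponbare replicate 2, the array with the highest trimmed mean (377).

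Because the arrays differed in brightness, they were also scaled to the same trimmed mean. The median log2 difference over all rice probe sets was 0.03 with this scaling and -0.16 as deposited, and over those above log10 2.5 in both cultivars it was 0.12 with scaling and -0.23 as deposited. After scaling, RGB1 had a signal of 3716, 3438, 3399, 3500 and 3012 on the 93-11 arrays, against 2857, 2799, 2780, 2942 and 2794 on the Nipponbare arrays. Each of the 93-11 arrays was then above each of the Nipponbare arrays, and the Nipponbare arrays lay close together. The share of all rice probe sets that separate in this way was not computed, so the separation does not set RGB1 apart. RGB1 averaged 3413 ± 255 in 93-11 and 2834 ± 67.0 in Nipponbare (SD, n = 5 each). It was higher in 93-11 by 0.26 on the log2 scale, a fold of 1.20 (standard error 0.07, 95% interval 0.11 to 0.41, limma adjusted p = 0.0179). A two-sided exact permutation test of log2 signal gave p = 0.00794, the smallest that 252 divisions of the arrays allow, and 0.0317 when adjusted over 4 tests of the 2 genes. This call was lost without 93-11 replicate 1 (0.23, limma adjusted p = 0.0516).

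LST8 had a scaled signal of 1237, 1214, 1178, 1229 and 1256 on the 93-11 arrays, against 1021, 833, 906, 1285 and 1005 on the Nipponbare arrays. Here 93-11 was the tight group and 4 of 5 Nipponbare arrays lay below it, while Nipponbare replicate 4 lay above. The mean was 1223 ± 29.4 in 93-11 and 1010 ± 171 in Nipponbare (SD, n = 5 each). The log2 difference was 0.29 (standard error 0.10, 95% interval 0.07 to 0.51), which did not pass the test (limma adjusted p = 0.0779; exact permutation p = 0.0476, adjusted p = 0.0952 over the 4 tests). Without Nipponbare replicate 4 it was 0.38 and was called (limma adjusted p = 0.00711). Thus 1 of 2 members was called higher and none lower after scaling, while 17.1% of all rice probe sets were called, 7.84% higher and 9.21% lower. These shares are over all rice probe sets, of which 19.2% were above log10 2.5 in both cultivars as deposited. No share called was computed for strong probe sets alone. Seen against the median of all probe sets, the difference of RGB1 was 0.07 as deposited and 0.23 scaled, and that of LST8 was 0.09 as deposited and 0.25 scaled. Against the median of probe sets above log10 2.5 in both cultivars, it was 0.14 for RGB1 and 0.17 for LST8 in either case.

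**Figure D2:**
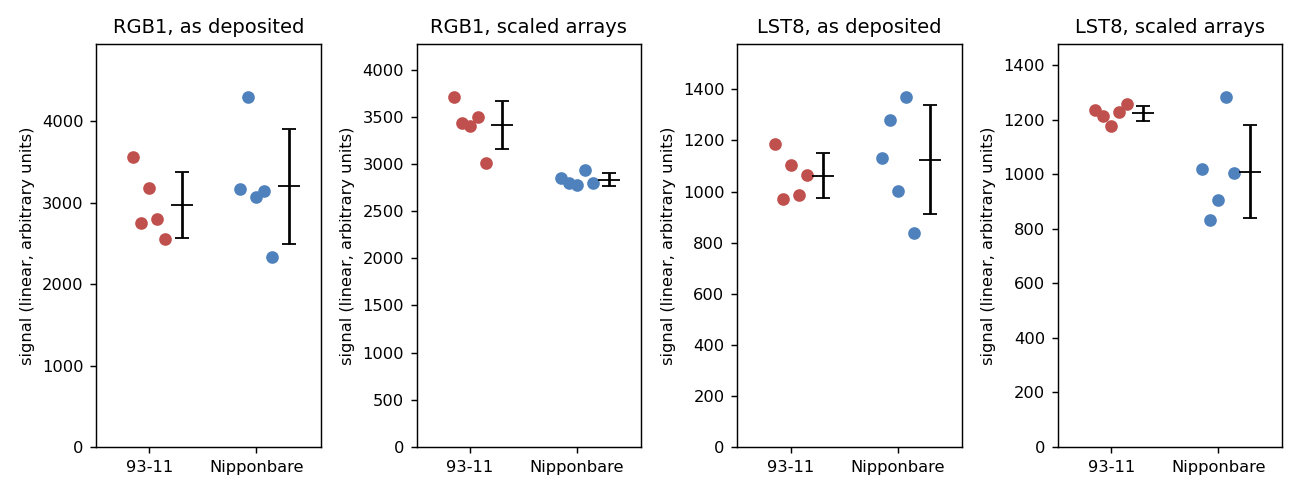
Signal (arbitrary linear units, axes from 0) of RGB1 and LST8 on each array, as deposited and after scaling of the arrays to the same trimmed mean, with 1 point per array (93-11 in red, Nipponbare in blue) and black bars for the mean and SD (n = 5). The cultivars overlap as deposited, and after scaling RGB1 lies between 3012 and 3716 in 93-11 and between 2780 and 2942 in Nipponbare.

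Both differences were thus negative as deposited, with intervals that spanned both signs, and positive under each levelling of the arrays tried here. Quantile normalization gave 0.21 for RGB1 (limma adjusted p = 0.0436) and 0.24 for LST8 (limma adjusted p = 0.137). Scaling to the bacterial hybridization controls, an alternative added after the data had been seen, gave 0.12 for RGB1 and 0.15 for LST8, and neither was called (limma adjusted p = 0.797 and 0.773). The SD of log2 signal between replicates, pooled over cultivars, was 0.260 for RGB1 and 0.218 for LST8 as deposited, and 0.0818 and 0.168 after scaling. The median of probe sets above log10 2.5 in both cultivars was 0.293 as deposited and 0.170 after scaling. The spread of RGB1 therefore shrank with scaling more than that of LST8 did.

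**Figure D3:**
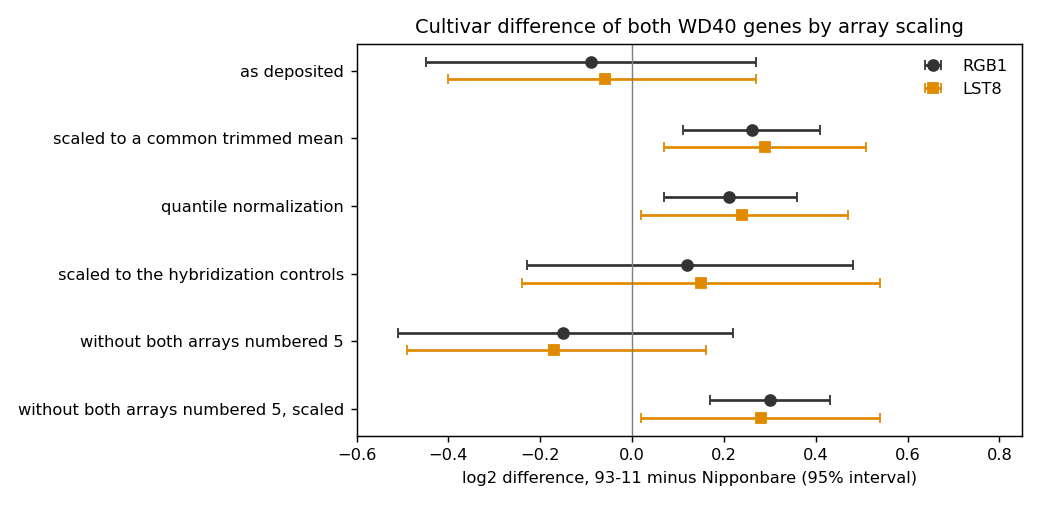
Log2 difference of RGB1 (circles) and LST8 (squares), 93-11 minus Nipponbare, with 95% intervals from limma, as deposited, under 3 other ways to level the arrays, and without the arrays numbered 5. Values lie on both sides of 0, from -0.17 to 0.30.

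RNA quality was read from the rice control probe sets, which compare the signal at the 3' end of a transcript with that at its 5' end. The actin ratio was 2.97 to 4.84 in 93-11 and 2.74 to 4.54 in Nipponbare, and replicate 5 was the highest in each cultivar. GAPDH had replicate 5 highest in Nipponbare only, and cyclophilin in neither cultivar. The GAPDH ratio was highest in 93-11 replicate 1 (6.31), followed by 93-11 replicate 5 (6.15) and Nipponbare replicate 5 (5.72), and the cyclophilin ratio was highest in 93-11 replicate 1 (3.58) and was 3.12 and 3.08 in replicates 5 of 93-11 and Nipponbare. At each replicate number, the actin and GAPDH ratios were higher in 93-11 than in Nipponbare. The cyclophilin ratio was higher in Nipponbare at numbers 2 and 4. The numbers were not taken to pair the arrays. 93-11 replicate 1 is the array without which the scaled call of RGB1 was lost. The part of RNA quality in that call, and in the other cultivar differences, was not tested. Without both arrays numbered 5, the difference of RGB1 was -0.15 as deposited (limma adjusted p = 0.619) and 0.30 after scaling (limma adjusted p = 0.00397). That of LST8 was -0.17 as deposited (limma adjusted p = 0.511) and 0.28 after scaling (limma adjusted p = 0.139). The label of the tissue was checked by markers of inflorescence and meristem, of which 15 of 16 probe sets were above log10 2.5 in both cultivars. Among all probe sets paired with 1 gene, 40.1% were above this level in both cultivars. Of the 3 probe sets of anther and tapetum genes none was, and of 10 of endosperm storage genes 1 was. The 6 probe sets of green tissue (2 of 5 listed genes were measured), of which 1 was above the level in both cultivars, summed to a signal of 460 to 2415 on the 93-11 arrays and 11242 to 18726 on the Nipponbare arrays. The part of green tissue in the differences of RGB1 and LST8 was not tested. The array was designed mostly on japonica sequence, and mismatched probes can lower a 93-11 signal, which was not tested here. The probe set of RGB1 is of the "_s_at" kind, which can match more than 1 transcript.

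A ratio of probe sets within an array does not depend on the level of that array where this level multiplies all signals alike. Whether it does so for dim signals was not tested. Its size carries the affinity of each probe set, so only its difference between cultivars is read. RGB1 over RGA1, the beta over the alpha subunit, had a log2 ratio of 1.22, 1.01, 1.29, 1.24 and 0.94 on the 93-11 arrays and of 1.14, 1.18, 0.95, 1.28 and 1.32 on the Nipponbare arrays. The cultivars overlapped throughout and the difference was -0.03 (exact permutation p = 0.730, adjusted p = 0.833 over 6 ratios). RGA1 itself had a deposited log2 difference of -0.06 (limma adjusted p = 0.892) and was higher in 93-11 by 0.30 after scaling (limma adjusted p = 0.0264).

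RGB1 was also set over RGG1, a gamma subunit. The log2 ratio was 4.39, 4.60, 4.34, 4.64 and 4.33 on the 93-11 arrays and 4.02, 4.17, 3.95, 4.04 and 3.78 on the Nipponbare arrays, without overlap. The ratio was higher in 93-11 by 0.47 (exact permutation p = 0.00794, the smallest the design allows, adjusted p = 0.0476). RGG1 was a weaker probe set, with a signal of 170.1, 113.4, 157.8, 112.4 and 127.0 in 93-11 and of 194.6, 240.0, 199.0, 190.6 and 170.0 in Nipponbare, and was below log10 2.5 in both cultivars, so the size of this ratio depends on a dim signal. Its own difference was -0.51 as deposited (limma adjusted p = 0.0703) and -0.18 after scaling (limma adjusted p = 0.333), and it was not called. RGB1 over LST8 differed by -0.03 (exact permutation p = 0.833, adjusted p = 0.833), which was less than the spread of the ratio between arrays (SD 0.125 in 93-11 and 0.205 in Nipponbare). RGB1 over RACK1A, a propeller that sits on the ribosome, differed by 0.21 (exact permutation p = 0.0714, adjusted p = 0.143).

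**Figure D4:**
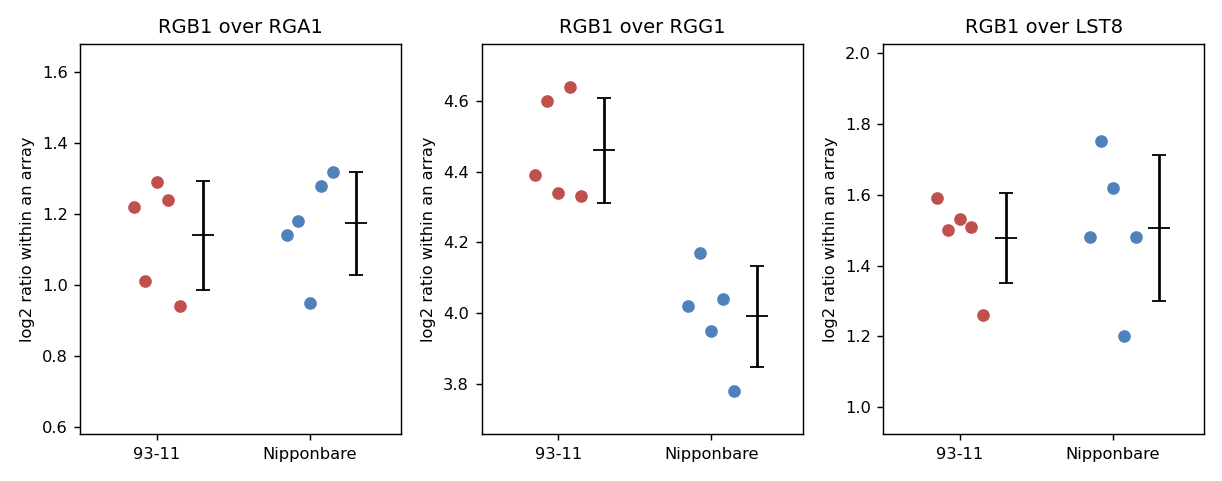
Log2 ratio of the deposited RGB1 signal to that of RGA1, RGG1 and LST8 within each array (93-11 in red, Nipponbare in blue), with black bars for the mean and SD (n = 5). The vertical axes have the same span and do not start at 0. RGB1 over RGG1 averages 4.46 in 93-11 and 3.99 in Nipponbare, and the other ratios overlap.

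The 6 ratios were chosen after the signals of the members were known. LST8 was set against SnRK1A, an energy-sensing kinase that opposes TOR, because the TOR kinase itself had no probe set paired with it alone. LST8 over the first probe set of SnRK1A was higher in 93-11 by 0.36 (exact permutation p = 0.0159, adjusted p = 0.0476), with log2 ratios of 0.23 to 0.83 in 93-11 and -0.12 to 0.29 in Nipponbare. Over the second probe set of SnRK1A, the difference was 0.24 (exact permutation p = 0.238, adjusted p = 0.357). Both differences were positive, and only that with the first probe set passed the test. Whether they differ from each other was not tested.

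The genes that work with WD40 proteins were taken from a list of 44 symbols, of which 8 matched a gene. RGB1 is one of them, and ASP1 was set aside because its further symbols are those of an aspartic protease. The other 6 genes had 7 probe sets, of which 6 were above log10 2.5 in both cultivars, beside 40.1% of all probe sets paired with 1 gene. None was called as deposited, beside 13.5% of all rice probe sets, and RGA1 alone was called after scaling, beside 17.1%. The median log2 difference of the 7 was -0.30 as deposited and 0.06 after scaling, and that of all probe sets above log10 2.5 in both cultivars was -0.23 as deposited and 0.12 after scaling. Of these 7 probe sets 2, of RGG1 and of OsTPR2, had an unadjusted p under 0.05 in limma as deposited. SDG718, a Polycomb histone methyltransferase, had a signal of 464 ± 57.9 in 93-11 and 518 ± 155 in Nipponbare. OsTPR1, a TOPLESS-related corepressor that is itself a WD40 protein, had 3324 ± 475 in 93-11 and 3821 ± 855 in Nipponbare.

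Further WD40 proteins that carry other names were listed after the members had been found. With the corepressors OsTPR1 and OsTPR2 and the scaffolds RACK1A and RACK1B, they made 8 genes with 10 probe sets, all above log10 2.5 in both cultivars. This level was passed in both cultivars by 40.1% of all probe sets paired with 1 gene. MSI1, a histone chaperone, and FIE are propellers of the Polycomb complex, FAS2 is a subunit of the chromatin assembly factor, and WDR12 acts in ribosome assembly. None of the 10 was called as deposited, beside 13.5% of all rice probe sets. The median difference was -0.19, beside -0.23 for all probe sets above log10 2.5 in both cultivars. After scaling, 1 of the 2 probe sets of MSI1 (0.29, limma adjusted p = 0.00704) and that of WDR12 (0.29, limma adjusted p = 0.0201) were higher in 93-11. Over all rice probe sets, of which 19.2% were above log10 2.5 in both cultivars, 7.84% were higher. The median of the 10 was 0.16, beside 0.12 for all probe sets above that level. The called probe set of MSI1 is of the "_s_at" kind, which can match more than 1 transcript. The other probe set of MSI1 had a scaled difference of 0.22 (limma adjusted p = 0.0853). RACK1A, with a signal of 6556 ± 601 in 93-11 and 8152 ± 1522 in Nipponbare, had a difference of -0.30 as deposited and 0.06 after scaling, and was not called in either.

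Genes linked to TOR were also listed late: SnRK1A and its relatives OSK24 and OSK35, the cap-binding factor eIF4E, and genes of autophagy, which TOR holds back. TOR and ATG8A had no probe set paired with either alone, and the other 11 genes had 16. As deposited, ATG4A, a protease of autophagy, was the only one called, beside 13.5% of all rice probe sets. It fell to 316 ± 50.0 in 93-11, against 676 ± 195 in Nipponbare, a log2 difference of -1.02 (standard error 0.20, limma adjusted p = 0.00198) that was -0.68 after scaling (limma adjusted p = 5.38e-04). Its homologue ATG4B had 803 ± 117 in 93-11 and 732 ± 162 in Nipponbare, which was not called as deposited (0.15) and was higher by 0.50 after scaling (limma adjusted p = 7.45e-04). ATG12, part of the conjugation system of autophagy, was higher after scaling as well (0.48, limma adjusted p = 0.00323). The probe sets of ATG4A and ATG12 are of the "_s_at" kind, which can match more than 1 transcript. The remaining 4 higher calls after scaling were of OSK24 and OSK35, whose probe sets share a design cluster and can match both kinases. Over the 16 probe sets, 6 were higher and 1 was lower after scaling, beside 7.84% higher and 9.21% lower over all rice probe sets. Of the 16, 14 were above log10 2.5 in both cultivars, beside 19.2% of all rice probe sets. No share called was computed for probe sets of like signal, so the count of 6 is not read as an excess. The median difference of the 16 was 0.21 after scaling, beside 0.12 for all probe sets above log10 2.5 in both cultivars and 0.29 for LST8.

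**Figure D5:**
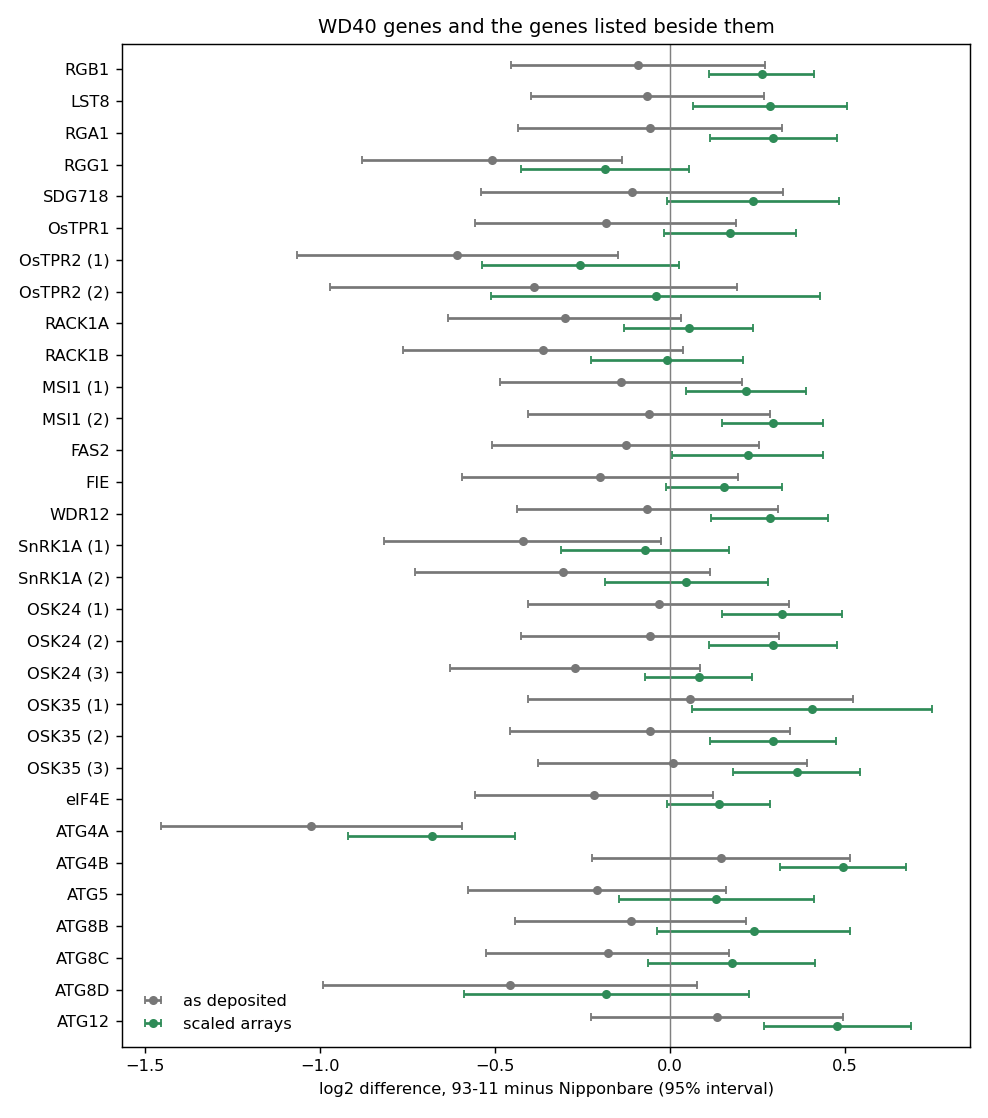
Log2 difference, 93-11 minus Nipponbare, with 95% intervals from limma, of RGB1, LST8 and the genes listed beside them, as deposited (grey) and after scaling of the arrays (green). Genes with several probe sets are numbered. Most differences lie left of 0 as deposited and right of it after scaling, and ATG4A lies left of 0 in both.

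RGB1 and LST8 both lie on chromosome 3, with 74 annotated genes between them in the order of the RefSeq gene table. Of these, 24 had 33 probe sets, of which 15 (45.5%) were above log10 2.5 in both cultivars, beside 40.1% of all probe sets paired with 1 gene. As deposited, 1 of the 33 was called higher and 9 were called lower in 93-11, and after scaling 6 were higher and 6 lower. Over all rice probe sets, 1.66% were higher and 11.9% lower as deposited, and 7.84% were higher and 9.21% lower after scaling.

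The genes whose scaled log2 signal followed that of RGB1 most closely over the 10 arrays, out of 1518 strong and named probe sets, were CYCA3-2, a cyclin (Pearson's r = 0.974), eIF-4A-1, a helicase of translation initiation (0.967), MCM4, a subunit of the replicative helicase (0.964), and MPK10, a MAP kinase (0.958). For LST8 they were OsSAPK8, a kinase of stress signalling (0.863), OsTLP14 (0.824), OsC3H22, a zinc finger gene (0.809), and JMJ703, a histone demethylase (0.806). This rule was set after the values of RGB1 and LST8 had been seen. The coefficients hold the cultivar difference together with any variation between arrays that the scaling left. They are the highest of 1518 and are given as a description without a test.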

How the data were processed

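Labeled cRNA of young panicles, 5 biological replicates of 93-11 and 5 of Nipponbare, had been hybridized singly to 1-colour Affymetrix arrays. The authors deposited an intensity for each of 57381 probe sets and 10 arrays, a positive linear signal made with GCOS 1.3 according to the submitters' processing notes. How probe pairs were summarised, and to what target arrays were scaled, is not stated in those notes. The 123 Affymetrix controls were left out of the tests.

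The main test was limma 3.58.1 (R 4.3.3) on log2 of the signal plus 16, with an intensity trend in eBayes and no block, two-sided and adjusted by Benjamini-Hochberg over 57258 probe sets with a threshold of 0.05, as deposited and scaled to a common trimmed mean. Fold changes are on this scale. Single values were tested by exact permutation over 252 divisions of the arrays, and correlations with 100000 permutations (20000 for Spearman's rho). The number of arrays limits the precision. The fit was tested on simulated data. Alternatives were other offsets, normalizations, filters and tests, left-out arrays and a replicate block. The lists of other WD40 and TOR genes, the ratios, the array relation, the likeness rule and the hybridization controls were added after the members' values were known. The 3'/5' ratios use control probe sets that replaced dim ones after their values were seen. Genes were paired through the platform annotation and RefSeq assembly ASM3414082v1, whose coordinates served only to order genes along a chromosome. Named were the strongest and weakest members, those called with the largest change, and members of known function, a rule under which both members are named. Members and lists were chosen with earlier results of these data known. Python 3.11.15, scipy 1.17.1 and matplotlib 3.10.9 were used.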

Additional observations from a re-analysis of the deposited data

Results flagged for a closer look

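Neither RGB1 nor LST8 had an array that stood apart from the other 4 of its cultivar by Dixon's 95% critical value, as deposited or scaled. Among the genes listed beside them and the array measures, 12 values did, and chance gives about 1 in 20 groups, of 132 examined here. Nipponbare replicate 2, the brightest array, was the highest as deposited for RACK1A (10793, the lowest of its cultivar being 7039), ATG5 (530), ATG8B (1852), ATG8C (4992) and ATG12 (582). RACK1A also had 93-11 replicate 1 apart, at 7593 above a lowest value of 6034. After scaling, RACK1B had 2896 on Nipponbare replicate 4, below a highest value of 3946. The arrays numbered 5 stood apart after scaling for OSK35 (448 on 93-11 replicate 5 in 1 probe set and 996 on Nipponbare replicate 5 in another), for ATG4A (288 on 93-11 replicate 5) and for ATG8C (4443 on Nipponbare replicate 5). The 3'/5' ratio of actin was 4.54 on Nipponbare replicate 5, with a lowest value of 2.74 in that cultivar. Control probe sets that were used at first for other 3'/5' ratios gave 3 further values apart. They were replaced by brighter ones after their low signals were seen, and those values are not counted here.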

How the results depend on the processing

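As deposited, neither member was called, with 1 or 64 added before log2, or keeping only signals whose mean log10 exceeded 2.0. The same held without the trend, by the t-test with pooled variance, or without any single array. After scaling to the trimmed mean 1 member, RGB1, was called higher in 93-11, and 1 was called with quantile normalization, scaling with the replicate block, and scaling without both arrays numbered 5. With scaling and without single arrays the count was 0 to 2. The share of all rice probe sets called is given only as deposited (13.5%) and after scaling to the trimmed mean (17.1%). The counts under the other settings therefore have no background beside them. No member was called lower under any of these, and both stayed above log10 2.5, 2.0 and 3.0. Relative to the deposited difference, that of RGB1 changed its sign to 0.26 after scaling, 0.21 with quantile normalization and 0.12 with the hybridization controls. It was 0.26 with scaling and the replicate block, and 0.30 with scaling and without the arrays numbered 5. That of LST8 changed to 0.29, 0.24, 0.15, 0.29 and 0.28 under the same settings. The cause of these sign changes was not tested. Without single arrays as deposited, RGB1 was at -0.20 to 0.02, positive only without Nipponbare replicate 2. LST8 was at -0.16 to 0.01, positive only without Nipponbare replicate 4. Scaled and without single arrays, RGB1 was at 0.23 to 0.31, with 0.25 without 93-11 replicate 4 and 0.27 without Nipponbare replicate 1. LST8 was then at 0.22 to 0.38, with 0.25 without Nipponbare replicate 3. The block of replicate numbers gave -0.09 for RGB1 and -0.06 for LST8 as deposited and changed no call. Same-numbered arrays correlated at -0.06 to 0.56 in their deviations, 3 of 5 pairs being over 0.1, and 2 of 5 arrays of 93-11 correlated best with their own number, so the numbers were not taken to pair the arrays.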
